A study of Homo sapiens with 6 samples.

Results

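The genes described here are TCF12, TCF3 and TCF4, which encode the E proteins HEB, E2A and E2-2, and ID1, ID2, ID3 and ID4, which encode their inhibitors. They were chosen by gene symbol, and all 7 were present among the 23591 genes of the expression table. Total RNA had been sequenced from the human embryonic stem cell line H1 in 3 libraries labelled as HEB knockout (HEB KO, also written HEB-/- by the submitters) and 3 labelled as wild type (WT). Both groups grew in the defined TeSR-E8 medium on growth-factor-reduced Matrigel, with no treatment named. The labels say neither how the TCF12 gene was disrupted nor whether the HEB KO libraries came from 1 clone or several, and the 3 HEB KO columns share a name in the table. Nor do they say that replicates were separate cultures, so the p-values rest on a spread between libraries that may be technical.

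E proteins are transcription factors of the basic helix-loop-helix (bHLH) class. They bind the E-box, CANNTG, as dimers with each other or with tissue-restricted bHLH partners. ID proteins have the helix-loop-helix with which they pair with E proteins but lack the basic region that touches DNA, so the pairs they form do not bind, and the ratio of E to ID protein sets how much E protein is free. ID genes are known targets of BMP signalling through SMAD1 and SMAD5. HEB acts with SMAD2 and SMAD3 downstream of Nodal in embryonic stem cells.

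The promoters of the 4 ID genes are shown because ID2 and ID3 stood on opposite sides of WT in HEB KO cells and because the E-box is the sequence that E proteins read. Each line gives the 250 bases before the RefSeq start of the gene in GRCh38.p14, read 5′ to 3′ on the gene's own strand, with every E-box in capitals. The windows are chr20:31605039-31605288 (plus strand) for ID1, chr2:8681806-8682055 (plus strand) for ID2, chr1:23559502-23559751 (minus strand) for ID3 and chr6:19837120-19837369 (plus strand) for ID4.
ID1: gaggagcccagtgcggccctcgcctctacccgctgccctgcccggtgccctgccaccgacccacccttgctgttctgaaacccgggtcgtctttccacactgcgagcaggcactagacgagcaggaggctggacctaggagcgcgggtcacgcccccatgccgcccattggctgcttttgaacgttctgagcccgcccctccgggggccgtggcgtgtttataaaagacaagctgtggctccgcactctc
ID2: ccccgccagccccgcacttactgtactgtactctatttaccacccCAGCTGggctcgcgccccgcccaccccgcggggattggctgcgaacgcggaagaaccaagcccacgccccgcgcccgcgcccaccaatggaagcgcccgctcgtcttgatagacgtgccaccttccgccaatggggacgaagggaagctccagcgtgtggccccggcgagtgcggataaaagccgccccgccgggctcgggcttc
ID3: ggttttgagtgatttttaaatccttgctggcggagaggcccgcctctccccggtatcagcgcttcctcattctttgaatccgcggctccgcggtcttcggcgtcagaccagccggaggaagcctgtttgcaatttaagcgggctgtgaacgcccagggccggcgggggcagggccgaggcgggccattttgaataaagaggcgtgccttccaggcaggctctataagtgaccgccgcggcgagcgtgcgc
ID4: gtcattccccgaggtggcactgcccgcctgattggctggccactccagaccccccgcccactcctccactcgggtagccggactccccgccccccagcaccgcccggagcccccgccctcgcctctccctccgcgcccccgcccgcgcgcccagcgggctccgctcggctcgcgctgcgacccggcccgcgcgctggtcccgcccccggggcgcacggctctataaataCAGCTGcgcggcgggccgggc

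The ID2 and ID4 windows each held 1 E-box, CAGCTG in both cases, which began 205 bases before the start of ID2 and 21 bases before that of ID4. CANNTG, which reads the same on both strands, was not found in the ID1 and ID3 windows. Of 35116 RefSeq promoter windows of this length, 61.8% held CANNTG and 13.99% held CAGCTG, which is one form of CANNTG. The TATA motif TATAAA, on either strand, was in the ID1 and ID4 windows and in 10.7% of all windows. CCAAT, on either strand, occurred 3 times in the ID2 window and once each in those of ID1 and ID4, against 32.0% of all windows with at least 1. RefSeq gave 5 start sites to TCF12, 10 to TCF4 and 1 to TCF3 and to each ID gene. The table has 1 value per gene, so transcripts from different starts, such as the long and short forms of TCF12, are not told apart in what follows.

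Values were taken as FPKM, a level per kilobase of transcript and scaled to the number of mapped fragments. On that reading levels of different genes can be set side by side, but the transcript lengths used are unknown. Summed FPKM was 440703 in HEB KO library 1 and between 635114 and 714875 in the other 5 libraries. Steps between low values grow as depth falls. For genes under 0.15 FPKM in both libraries, the ratio of each library to WT library 2 was therefore taken. Its commonest value was 1.90 in HEB KO library 1 and 1.54 in WT library 1, against 0.949 to 0.983 in the other 3 libraries. The commonest bin held 87 of 1235 genes in HEB KO library 1 and 47 of 1621 in WT library 1. Any reading of relative depth thus rests on small peaks, and absolute depths are unknown. HEB KO library 1 also stood apart in content. It differed at least 2-fold in FPKM from HEB KO libraries 2 and 3 at 27.1% and 26.0% of tested genes, while libraries 2 and 3 differed at 2.28%. WT library 1 differed from WT libraries 2 and 3 at 11.8% and 15.5%, and those from each other at 3.03%. Of 13 pluripotency markers, 12 reached 1 FPKM in at least 3 libraries, and the exception was UTF1. Their summed level was 1782 FPKM in HEB KO library 1, while the other 5 libraries held 3086 to 3696 FPKM. These marker sums were not scaled to the library totals given above. They also hide single markers, as NANOG and LIN28B were lower and SALL4 higher in every HEB KO library. NANOG read 74.3, 122.7 and 95.1 FPKM in the HEB KO libraries, against 208.0, 202.6 and 197.8 FPKM in the WT libraries. Such separation, in either direction, was seen for 19.5% of all tested genes.

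Among the E proteins, TCF12 fell, TCF3 stood somewhat higher and TCF4 overlapped between the groups. Among the ID genes, ID2 was lower and ID3 higher in every HEB KO library, ID1 overlapped, and ID4 was high in 1 HEB KO library. By limma with Benjamini-Hochberg adjustment over 12937 genes, 1 of the 7 members was called, TCF12, which was lower, against 0.216% of all tested genes called lower, 0.0232% called higher and 0.24% in either direction. The 28 lower and 3 higher calls behind these shares became 1029 lower and 845 higher with library weights, and 288 lower and 192 higher without both libraries numbered 1. Complete separation of the groups was seen for 4 of the 7 members, 2 higher and 2 lower in HEB KO, against 19.5% of all tested genes. An unadjusted p under 0.05 was found for 3 members (TCF12, ID2 and ID3), against 10% of all tested genes. The median log2 fold change was -0.39 over the members and -0.04 over all genes tested. In bulk RNA, fewer cells that express a gene and less RNA per cell cannot be told apart.

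**Figure D1:**
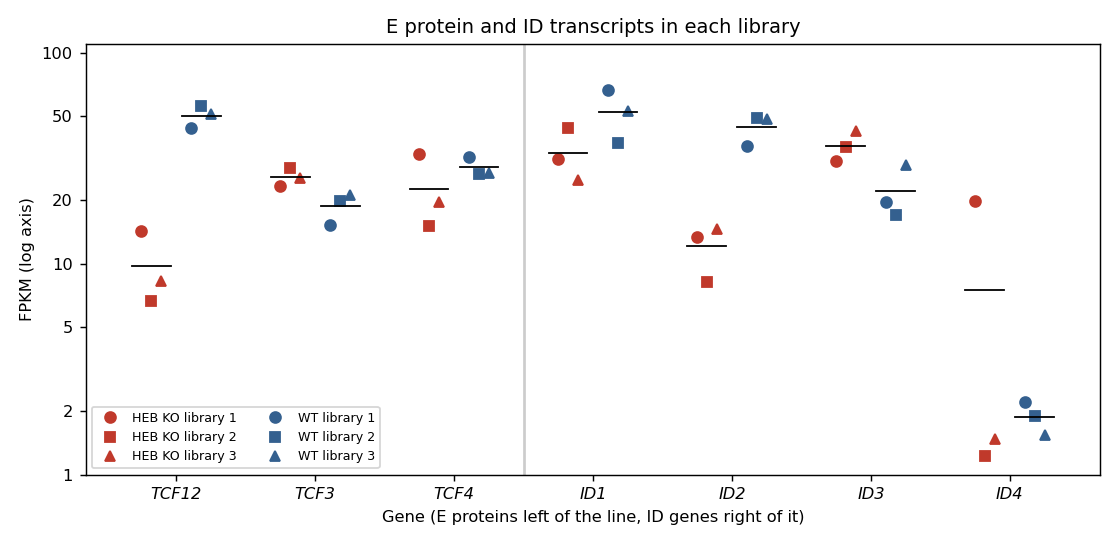
FPKM of the 3 E protein genes and 4 ID genes on a log axis, with HEB KO libraries (red) left of WT libraries (blue), 1 symbol per replicate number and bars at group means. TCF12 and ID2 lie lower and TCF3 and ID3 higher in all HEB KO libraries, and ID4 reads 19.8 FPKM in HEB KO library 1 alone.

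TCF12, the targeted gene, read 14.2, 6.69 and 8.28 FPKM in HEB KO libraries 1, 2 and 3, against 44.2, 55.7 and 51.0 FPKM in WT libraries 1, 2 and 3. Every HEB KO library was below every WT library, by at least 29.9 FPKM, so the labels fit the targeted transcript. It averaged 9.74 ± 3.98 FPKM in HEB KO cells, 19.4% of the 50.3 ± 5.82 FPKM in WT cells (SD, n = 3 each). The log2 fold change on the log2(FPKM + 1) scale was -2.31 (SE 0.28, limma adjusted p = 0.0310). Within its own library, TCF12 ranked at the 40.0th to 61.7th percentile of tested genes in HEB KO cells and the 85.4th to 89.5th in WT cells. The RNA that remained was thus still above 1 FPKM in all HEB KO libraries, and a value per gene does not show whether it encodes HEB. The call was lost without any 1 library other than HEB KO library 1 (limma adjusted p = 0.126 to 0.193) and held without HEB KO library 1 (adjusted p = 0.00346). The exact two-sided permutation p was 0.1, the smallest that 3 libraries against 3 allow.

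TCF3, whose E12 and E47 splice forms are the E2A proteins, read 23.4, 28.5 and 25.6 FPKM in the HEB KO libraries, against 15.3, 19.9 and 21.3 FPKM in the WT libraries. The groups did not overlap, but the lowest HEB KO value lay 2.18 FPKM above the highest WT value. It averaged 25.8 ± 2.56 FPKM in HEB KO cells and 18.8 ± 3.14 FPKM in WT cells, and the log2 fold change of 0.45 had a 95% interval of -0.04 to 0.93 (limma adjusted p = 0.522). TCF3 thus did not pass the test, and the interval runs from no difference to nearly the size of a doubling on that scale.

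TCF4, the gene of E2-2 (not the TCF7L2 gene, whose protein is also called TCF-4), read 33.2, 15.1 and 19.7 FPKM in the HEB KO libraries, against 32.2, 26.7 and 26.9 FPKM in the WT libraries. Both libraries numbered 1 were the highest of their group, and the groups overlapped through HEB KO library 1. The log2 fold change was -0.39 with a 95% interval of -1.07 to 0.29 (limma adjusted p = 0.685). In HEB KO library 1, both TCF4 and TCF12 were 1.90 to 1.91 times the mean of HEB KO libraries 2 and 3, while TCF3 was 0.867 times that mean.

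ID2, an inhibitor that blocks E proteins in many developing tissues, read 13.4, 8.22 and 14.6 FPKM in the HEB KO libraries, against 35.99, 49.1 and 48.8 FPKM in the WT libraries. All HEB KO libraries, library 1 included, lay at least 21.4 FPKM below the lowest WT library. It averaged 12.1 ± 3.39 FPKM in HEB KO cells and 44.6 ± 7.49 FPKM in WT cells, 3.69-fold lower, with a log2 fold change of -1.83 (SE 0.26, 95% interval -2.44 to -1.21). The limma adjusted p was 0.0545, just outside the threshold, and ID2 was 32nd of 12937 genes by p, next after the 31 genes called. It passed without HEB KO library 1 (adjusted p = 0.0417) and without both libraries numbered 1 (adjusted p = 0.00895), and the adjusted p ranged from 0.00151 to 0.287 over all settings tried. The exact two-sided permutation p was 0.1.

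ID3, a close relative of ID1 and like it a direct BMP target in many cells, was on the other side. It read 30.5, 35.7 and 42.6 FPKM in the HEB KO libraries, against 19.7, 17.0 and 29.5 FPKM in the WT libraries. The groups did not overlap, with a gap of 1.06 FPKM between HEB KO library 1 and WT library 3. The log2 fold change was 0.72 with a 95% interval of 0.12 to 1.32, and it did not pass over all genes (limma adjusted p = 0.416). After rescaling by the trimmed mean of M values, and also after quantile normalization, TCF12 and ID2 were still lower and TCF3 and ID3 still higher in all HEB KO libraries, and TCF4, ID1 and ID4 still overlapped.

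ID1, the ID gene most often used as a readout of BMP signalling, read 31.3, 43.8 and 25.0 FPKM in the HEB KO libraries, against 66.9, 37.2 and 53.2 FPKM in the WT libraries. The values within each group differed by 1.76-fold in HEB KO and 1.80-fold in WT, and HEB KO library 2 lay above WT library 2. The log2 fold change was -0.63 with a 95% interval of -1.33 to 0.06 (limma adjusted p = 0.527).

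ID4, an ID gene best known from neural progenitors and spermatogonia, read 19.8, 1.22 and 1.47 FPKM in the HEB KO libraries, against 2.21, 1.90 and 1.54 FPKM in the WT libraries. HEB KO library 1 was 14.7 times the mean of the other HEB KO libraries, which both lay below every WT library. The log2 fold change of 0.76 (95% interval -1.03 to 2.54, limma adjusted p = 0.768) therefore rested on 1 library, and it was -0.29 without that library (adjusted p = 0.421). Some markers of other cell types were, like ID4, high in HEB KO library 1. Others were not, and PAX6, SOX1, PDGFRA, CDX2 and KRT7 lay within the range of the other libraries. The 8 neural and neural crest markers summed to 15.7 FPKM in HEB KO library 1, against 1.05 to 1.62 FPKM elsewhere, with DLX5 at 8.63 FPKM against at most 0.0545 FPKM. The 6 mesenchyme markers summed to 45.4 FPKM in HEB KO library 1, against 1.63 to 5.79 FPKM, of which COL1A1 held 39.7 FPKM and DCN was listed at 0 in every library. The 6 amnion and trophoblast markers summed to 8.93 FPKM, against 0.820 to 2.97 FPKM. At 1 FPKM or more in HEB KO library 1 were 3 of the 8, 2 of the 6 and 3 of the 6 markers, and in at least 1 other library 0, 2 and 1 of them. HEB KO library 1 also had the fewest genes listed at 0 (4368, against 4803 to 5120) and the largest number that reached 1 FPKM (13961, beside 12468 to 12865). Whether HEB KO library 1 held cells of these types was not tested. Nor was any part of such cells, or of the library's raised low-value ratio, in the ID4 value.

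**Figure D2:**
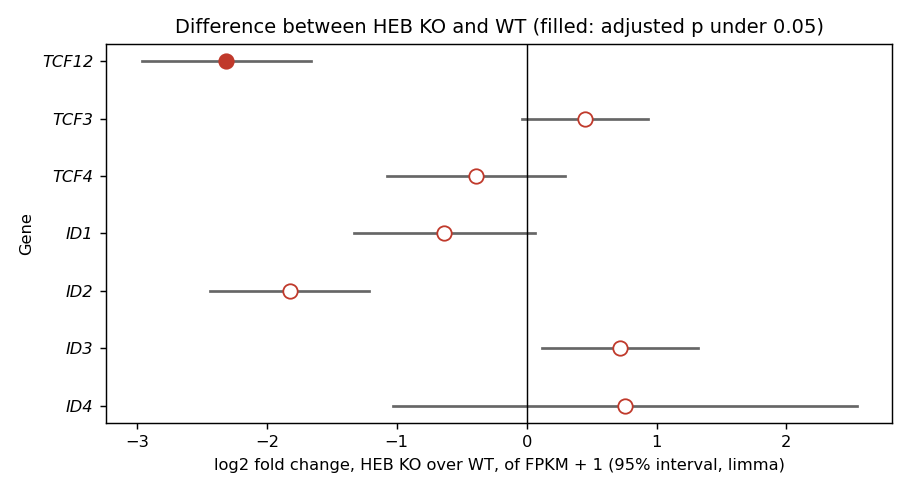
log2 fold change of FPKM + 1, HEB KO over WT, for the 7 members with 95% intervals from limma over 3 libraries against 3. TCF12 at -2.31 is the filled point (adjusted p under 0.05), the intervals of ID2 and ID3 lie on opposite sides of 0, and the interval of ID4 is the widest.

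The order of the members by level differed between the groups. In HEB KO cells it ran ID3, ID1, TCF3, TCF4, ID2, TCF12 and ID4, with means of 36.3, 33.4, 25.8, 22.7, 12.1, 9.74 and 7.49 FPKM. Of these neighbours, only TCF4 and ID2 had libraries that did not overlap. In WT cells the order ran ID1, TCF12, ID2, TCF4, ID3, TCF3 and ID4, with means of 52.4, 50.3, 44.6, 28.6, 22.1, 18.8 and 1.89 FPKM. Here ID1, TCF12 and ID2 overlapped as neighbours, ID2 stood clear of TCF4, TCF4, ID3 and TCF3 overlapped as neighbours, and TCF3 stood clear of ID4. TCF12 was thus the most abundant E protein transcript in all WT libraries and the least abundant in all HEB KO libraries.

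Both pools were smaller in HEB KO cells on the FPKM scale. The 3 E protein genes together gave 70.9, 50.3 and 53.6 FPKM in the HEB KO libraries, against 91.6, 102.3 and 99.2 FPKM in the WT libraries. The 4 ID genes gave 95.1, 89.0 and 83.7 FPKM in the HEB KO libraries, against 124.8, 105.3 and 132.9 FPKM in the WT libraries. In both sums every HEB KO library lay below every WT library. These sums, and the shares and ratios made from them, are scores over the members and were not tested.

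**Figure D3:**
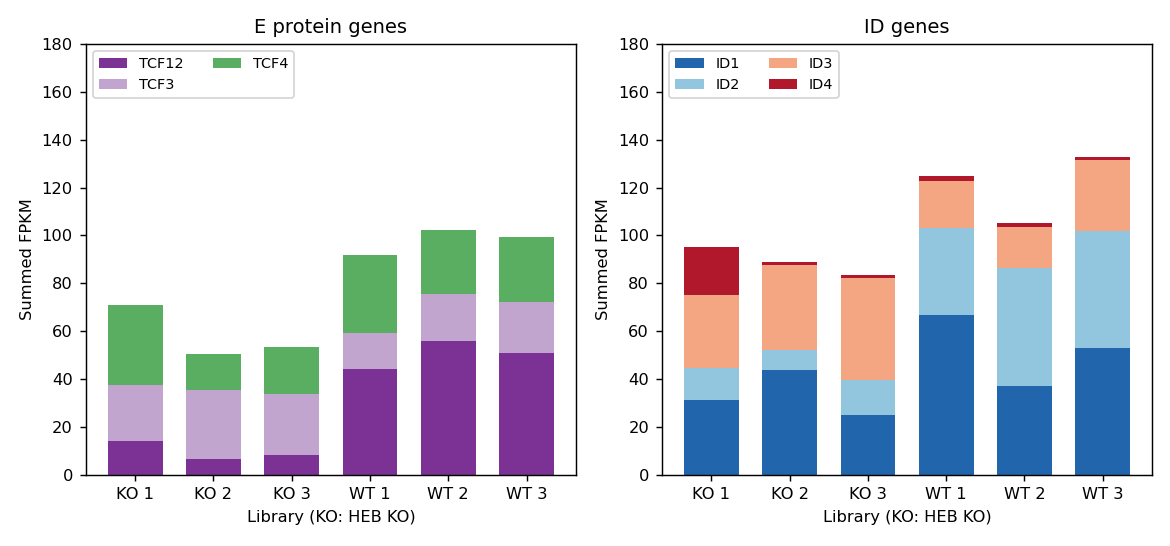
Summed FPKM of the E protein genes (left panel) and ID genes (right panel) in each library, stacked by gene, with HEB KO libraries left of WT libraries. The TCF12 segment takes 13.3% to 20.1% of the E protein sum in HEB KO and 48.2% to 54.5% in WT, and the ID2 segment 9.24% to 17.5% of the ID sum in HEB KO and 28.8% to 46.7% in WT.

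The make-up of the pools also differed. TCF12 supplied 16.3% ± 3.47 of E protein FPKM in HEB KO cells and 51.4% ± 3.15 in WT cells, whereas TCF3 supplied 45.8% ± 11.9 in HEB KO cells and 19.2% ± 2.39 in WT cells (SD, n = 3 each). The share of TCF4 was 37.9% ± 8.47 in HEB KO cells and 29.4% ± 4.96 in WT cells, with overlap. Shares of a pool have a fixed total, so a lower TCF12 share raises the other shares by the way they are built. The ratio of TCF3 to TCF4 leaves TCF12 out. It was 0.706, 1.89 and 1.30 in the HEB KO libraries, against 0.475, 0.747 and 0.790 in the WT libraries. These ranges overlapped. TCF3 was the largest E protein transcript in HEB KO libraries 2 and 3, and TCF4 was in HEB KO library 1. The sum of TCF3 and TCF4 alone was 56.7, 43.6 and 45.3 FPKM in the HEB KO libraries, against 47.5, 46.6 and 48.2 FPKM in the WT libraries. That sum overlapped between groups, with means of 48.5 ± 7.09 FPKM in HEB KO cells and 47.4 ± 0.819 FPKM in WT cells, so the difference between the E protein sums lay in TCF12.

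Among the ID genes, ID2 supplied 13.6% ± 4.13 of ID FPKM in HEB KO cells and 37.4% ± 8.94 in WT cells. ID3 supplied 41.1% ± 9.44 in HEB KO cells and 18.04% ± 3.58 in WT cells. Neither share overlapped between the groups, but a lower ID2 share raises the ID3 share by the way shares are built. The ratio of ID3 to ID2 was 2.28, 4.34 and 2.92 in the HEB KO libraries, against 0.547, 0.347 and 0.604 in the WT libraries, so ID3 exceeded ID2 in all HEB KO libraries and in none of the WT libraries. ID1 held 37.4% ± 10.4 of ID FPKM in HEB KO cells and 43.0% ± 9.50 in WT cells. ID4 held 20.8% in HEB KO library 1 and 1.16% to 1.81% in the other 5 libraries.

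The ratio of E protein to ID FPKM was 0.746, 0.566 and 0.640 in the HEB KO libraries, against 0.734, 0.971 and 0.746 in the WT libraries. HEB KO library 1 lay within the WT range, so the balance overlapped between groups, with means of 0.651 ± 0.0904 in HEB KO cells and 0.817 ± 0.134 in WT cells. On a log2 scale HEB KO minus WT was -0.33, beside a spread between replicates of 0.21. It was -0.50 without both libraries numbered 1, where the groups did not overlap, -0.20 without WT library 2 and -0.22 with ID4 left out. With TCF12 left out, the ratio turned the other way, at 0.596, 0.490 and 0.541 in the HEB KO libraries, against 0.380, 0.442 and 0.362 in the WT libraries. TCF3 and TCF4 thus stood higher against the ID genes in every HEB KO library, with a log2 difference of 0.46. Their sum alone overlapped between the groups. With ID2 left out, the ratio was 0.868, 0.623 and 0.776 in the HEB KO libraries, against 1.03, 1.82 and 1.18 in the WT libraries, a log2 difference of -0.80 with no overlap. TCF12 and ID2 had the lowest log2 fold changes of the members, so leaving out either shifts the ratio by the way it is built. These are ratios of RNA, and protein was not measured.

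**Figure D4:**
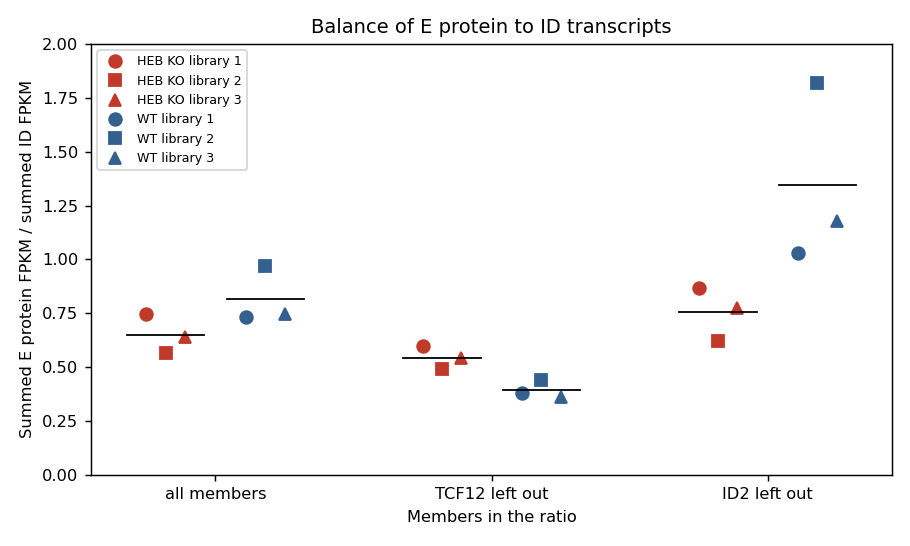
Ratio of summed E protein FPKM to summed ID FPKM in each library, with all 7 members, with TCF12 left out and with ID2 left out, HEB KO libraries (red) left of WT libraries (blue) and bars at group means. The groups overlap with all members, HEB KO lies higher (0.490 to 0.596, against 0.362 to 0.442 in WT) with TCF12 left out, and lower with ID2 left out.

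The surroundings of the pathway were described with 7 lists holding 117 genes, of which 116 were in the table and 58 were tested. None of the 58 was called, against 0.24% of all genes tested, and 10 of them had an unadjusted limma p under 0.05, against 10% of all genes. Tissue-restricted bHLH partners were nearly silent in both groups. Of 39 in the table, 36 stayed below 1 FPKM in every library, 7 of these were listed at 0 throughout, and the 39 summed to 11.2, 8.81 and 10.9 FPKM in the HEB KO libraries, against 9.52, 10.03 and 11.6 FPKM in the WT libraries. TCF15, a partner known from paraxial mesoderm, read 2.58, 3.91 and 5.25 FPKM in the HEB KO libraries, against 2.17, 1.62 and 3.86 FPKM in the WT libraries (log2 fold change 0.48, limma adjusted p = 0.632). NHLH2, a neuronal partner, read 4.39, 1.496 and 1.28 FPKM, against 2.43, 3.001 and 3.26 FPKM (log2 fold change -0.31, limma adjusted p = 0.783).

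Of 16 cofactors that E proteins or their partners recruit, 12 were tested, none was called, and the median log2 fold change was -0.07. LDB2, an adaptor of LIM-domain complexes that hold bHLH dimers, read 19.0, 25.7 and 34.9 FPKM in the HEB KO libraries, against 44.95, 56.9 and 61.4 FPKM in the WT libraries. Its groups did not overlap, but it did not pass (log2 fold change -1.04, 95% interval -1.66 to -0.41, limma adjusted p = 0.291). Its relative LDB1 averaged 34.4 ± 2.43 FPKM in HEB KO cells and 30.7 ± 5.88 FPKM in WT cells. None of 8 genes of ID and E protein turnover and calmodulin, which binds E proteins and blocks their DNA contact, was called, with a median log2 fold change of -0.09. CALM2 averaged 314 ± 103 FPKM in HEB KO cells and 366 ± 42.6 FPKM in WT cells, and CALM3 106 ± 28.9 and 111 ± 31.2 FPKM.

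Of 24 genes of BMP input to the ID genes, 17 were tested and none was called. Of these, 7 were lower in all HEB KO libraries and 0 higher, against 11.8% and 7.72% of all tested genes, and the list median was -0.19. The 7 were BMP7, BMPR1A, SMAD5, SMAD6, SMAD7, BAMBI and SMURF2. Inhibitors of BMP signalling (SMAD6, SMAD7, BAMBI and SMURF2) are among them, so counts over this list give no direction of BMP input. BMPR1A, a BMP type I receptor, read 61.7, 51.9 and 46.5 FPKM in the HEB KO libraries, against 121.2, 82.3 and 68.8 FPKM in the WT libraries (log2 fold change -0.72, 95% interval -1.36 to -0.09, limma adjusted p = 0.434). ACVR2B, a type II receptor for activin and BMP ligands, averaged 47.1 ± 19.2 FPKM in HEB KO cells and 53.1 ± 17.0 FPKM in WT cells. BAMBI, BMP7 and SMAD6 were named after their values were seen. BAMBI, with the list's smallest adjusted p, read 16.7, 19.8 and 17.9 FPKM in the HEB KO libraries. It read 39.3, 31.0 and 30.2 FPKM in the WT libraries (limma adjusted p = 0.266). BMP7 averaged 7.73 ± 4.47 FPKM in HEB KO cells and 15.3 ± 1.65 FPKM in WT cells (limma adjusted p = 0.388). SMAD6, a feedback inhibitor that BMP signalling induces, read 4.24, 2.02 and 1.52 FPKM in the HEB KO libraries. It read 5.18, 4.43 and 5.75 FPKM in the WT libraries (limma adjusted p = 0.406). Of the 17 genes tested, 14 had a log2 fold change below 0, against 54.8% of all genes tested.

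Of 11 proteins outside the bHLH class that ID proteins bind, 8 were tested, none was called and the median log2 fold change was -0.36. ETS1, an ETS factor, read 5.21, 17.5 and 11.1 FPKM in the HEB KO libraries, against 16.04, 18.4 and 19.1 FPKM in the WT libraries, and RBL2, a retinoblastoma relative, averaged 11.98 ± 2.30 and 15.8 ± 2.72 FPKM. Of 12 HES and HEY repressors, another bHLH class, 6 were tested, all had a log2 fold change below 0, against 54.8% of all genes tested. None was called, 2 were lower in all HEB KO libraries, against 11.8% of all tested genes, and the median was -0.45. HEY1, the list's largest change and named after its values were seen, read 1.67, 1.02 and 0.567 FPKM in the HEB KO libraries, against 5.29, 3.89 and 5.68 FPKM in the WT libraries (log2 fold change -1.53, limma adjusted p = 0.0971). HES6 averaged 13.1 ± 3.41 FPKM in HEB KO cells and 20.1 ± 4.09 FPKM in WT cells, and HES1 15.6 ± 4.01 and 17.3 ± 1.58 FPKM. Of 6 genes known as E protein and ID targets in other cells, 4 were tested and none was called. All 4 were below 0, against 54.8% of all genes tested, with a median of -0.84. CDKN1B and CDKN1C were lower in all HEB KO libraries, against 11.8% of all tested genes. CDKN1B, named after its values were seen, read 11.5, 15.3 and 16.3 FPKM in the HEB KO libraries. It read 19.9, 32.2 and 27.6 FPKM in the WT libraries (limma adjusted p = 0.356). CDH1, the E-cadherin gene that E2A represses in epithelial cells, read 116, 39.7 and 51.6 FPKM in the HEB KO libraries, against 174, 101 and 80.0 FPKM in the WT libraries (limma adjusted p = 0.565). CDKN1A, the p21 gene that E proteins activate, averaged 34.6 ± 12.7 FPKM in HEB KO cells and 46.2 ± 31.2 FPKM in WT cells.

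**Figure D5:**
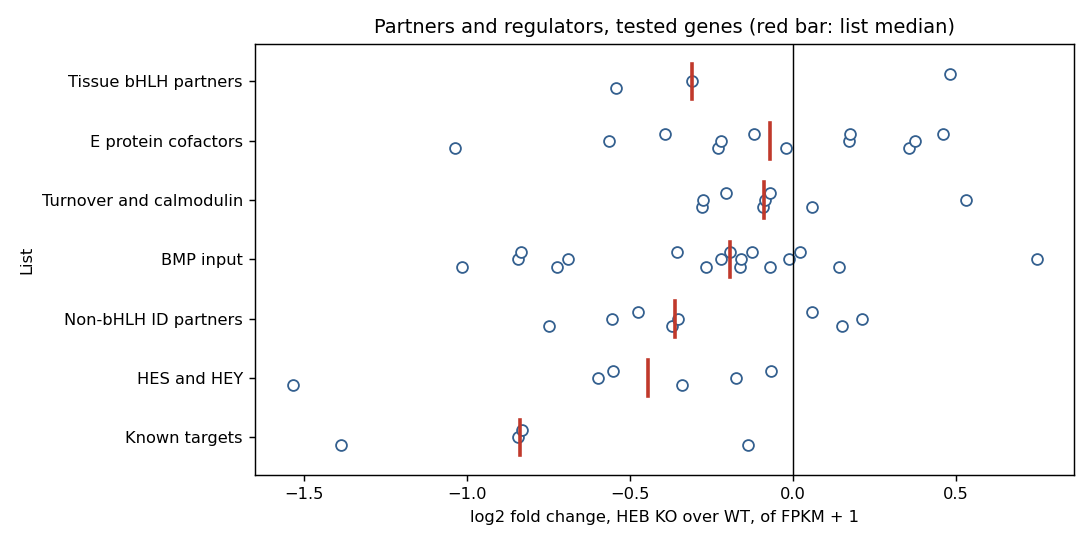
log2 fold change of FPKM + 1, HEB KO over WT, of the 58 tested genes of the 7 lists, 1 open circle per gene and a red bar at each list's median. None passed an adjusted p of 0.05, and the medians run from -0.84 (known targets) to -0.07 (E protein cofactors).

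Among 9083 tested genes with a mean of at least 5 FPKM, likeness to a member was measured as the root mean square difference of log2(FPKM + 1) values, each centred on its own mean over the 6 libraries. Closest to TCF12 were SP8, a zinc finger transcription factor, at 0.26, GUCY1B3, a soluble guanylate cyclase subunit, at 0.29, NNAT, the neuronatin gene, at 0.35, and ID2 at 0.35. SP8 read 6.73, 1.17 and 2.28 FPKM in the HEB KO libraries, against 16.2, 18.3 and 15.9 FPKM in the WT libraries, and like TCF12 was highest of its group in HEB KO library 1. Closest to ID2 were ECEL1, a membrane peptidase gene, at 0.25, FAM102B at 0.26, the transcription factor gene ONECUT1 at 0.26 and CDKN1C, the p57 cell cycle inhibitor gene, at 0.27. CDKN1C, one of the known E protein and ID targets, read 5.91, 5.09 and 7.29 FPKM in the HEB KO libraries, against 14.9, 20.8 and 17.0 FPKM in the WT libraries (log2 fold change -1.39, limma adjusted p = 0.0695). Of these genes GUCY1B3, NNAT and FAM102B fell (limma adjusted p = 0.0310, 0.0235 and 0.0310), and the others did not pass. Like that of TCF12, these 3 calls were lost without any 1 library other than HEB KO library 1 (adjusted p = 0.0854 to 0.193). A gene that is lower in all HEB KO libraries is near TCF12 and ID2 by the way the measure is built.

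Closest to ID4 were genes that were likewise high in HEB KO library 1. A gene that is high in that library alone is near ID4 by the way the measure is built. ST6GALNAC5, a sialyltransferase gene, read 34.1, 2.44 and 3.16 FPKM in the HEB KO libraries, against 4.27, 3.05 and 2.43 FPKM in the WT libraries, and lay at 0.13 from ID4. C16orf54 lay at 0.20, POLR2A, the largest subunit of RNA polymerase II, at 0.20, and FST, the activin antagonist follistatin, at 0.21. POLR2A read 44.0, 3.03 and 3.28 FPKM in the HEB KO libraries, against 5.46, 6.78 and 4.12 FPKM in the WT libraries. FST read 22.7, 2.45 and 2.70 FPKM, against 4.31, 3.09 and 1.93 FPKM. None of the 4 passed the test (limma adjusted p = 0.720 to 0.853).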

How the data were processed

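Each of 6 libraries of H1 cells had 1 value per gene symbol. Per the labels' protocols, ribosomal RNA was removed and libraries were made with a stranded total RNA kit. Per the submitters' processing notes, the authors aligned reads to hg19 with TopHat2 2.1.0 and Bowtie2 2.2.6. What is not given in the sources is which quantification tool, annotation and strand setting made the values. The deposited values were taken as FPKM from their form, and hold no counts, so no count model was fitted and intervals on depth are not given. Of 23619 entries, 28 with a date in place of a symbol were left out. Values were tested as log2(FPKM + 1), which understates changes of low genes, by limma 3.58.1 under R 4.3.3 with its trend option. A gene entered the test if 3 of 6 libraries reached 1 FPKM, which left 12937 genes, and p-values were adjusted over them (Benjamini-Hochberg, threshold 0.05). All 7 members passed this filter. The fit was checked on simulated data with independent normal noise, in which no library stood apart as HEB KO library 1 does here. That check therefore does not cover the effect of such a library on the calls. Groups came from sample titles. The members and lists were chosen with earlier results of these data known. Named by rule were the members and the 4 genes most like TCF12, ID2 and ID4. From each list, up to 4 called genes or else the 2 most abundant tested genes were named. Marker genes, HEY1, CDKN1B, BMP7, SMAD5, SMAD6, SMAD7, BAMBI and SMURF2 were named after their values were seen. For each gene 16 alternative settings were tried. Promoter windows are from RefSeq (GRCh38.p14), where all 7 members matched, and show no hg19 coordinates.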

Additional observations from a re-analysis of the deposited data

How the results depend on the processing

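Against 31 genes called over the table, 11 were called with no filter on low values (20301 genes tested), 18 when 5 FPKM was required, 480 without both libraries numbered 1 and 1874 with library weights. Leaving out 1 library at a time gave 7 to 76, the highest without HEB KO library 1. A filter changes which genes are tested, an omission makes a group smaller, and the cause of the other shifts was not tested. Members called numbered 1 in the reported fit, 0 with no filter, 3 with library weights (TCF12, ID2 and ID3), 2 without both libraries numbered 1 (TCF12 and ID2) and 0 to 2 when 1 library was omitted.

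In all settings TCF12 had a negative log2 fold change. With no filter its log2 fold change was -2.31 (limma adjusted p = 0.105), and when 1 library was omitted it was -2.60 to -2.10. ID2 did not pass in the reported fit but passed with library weights (-1.88, adjusted p = 0.00151) and without both libraries numbered 1 (-2.06, adjusted p = 0.00895), and ranged from -1.97 to -1.59 with single libraries left out. ID3 passed with library weights (0.97, adjusted p = 0.0127). ID4 turned to -0.17 with library weights and -0.21 without both libraries numbered 1, and ran from -0.29 to 1.32 with single libraries left out. TCF3, TCF4, ID1 and ID3 kept their direction in all settings. The E protein to ID balance, -0.33, became 0.46 with TCF12 left out and -0.80 with ID2 left out, and was -0.43 to -0.20 with single libraries left out.

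The replicate numbers were not taken to pair the libraries. Correlations of the residuals of HEB KO and WT libraries sharing a number were 0.262, -0.0399 and 0.269, and not every library correlated best with its own number. In a fit with a replicate block, 10 genes and 0 members were called, and TCF12 stood at -2.31 with limma's adjusted p = 0.0957.

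Of 111 values of the members in other settings, 97 kept their direction and their side of the threshold, 7 missed it, 4 passed it and 3 turned in sign. Among the other named genes 336 of 395 values kept both, 20 missed the threshold, 17 passed it and 22 turned in sign. The 20 were those of GUCY1B3, NNAT and FAM102B, whose calls were lost with no filter (adjusted p = 0.134, 0.0751 and 0.0751) and with most single omissions, and for GUCY1B3 and FAM102B also with the replicate block (0.0514 and 0.0957). None of these genes that turned in sign had passed the test. CALM2 turned to 0.054 with library weights and ran from -0.45 to 0.033 when 1 library was omitted. CALM3 turned to 0.092 with quantile normalization and with library weights, and ran from -0.28 to 0.17 when 1 library was omitted. With the same omissions ACVR2B ran from -0.50 to 0.033 and HES1 from -0.32 to 0.039. CDKN1A turned to 0.028 with quantile normalization and ran from -0.91 to 0.35 when 1 library was omitted. Genes like ID4 turned with library weights, to -0.22 for C16orf54, -0.64 for POLR2A and -0.021 for FST, and without both libraries numbered 1, to -0.17 for C16orf54 and -0.60 for POLR2A. When 1 library was omitted, the range was -0.14 to 1.53 for ST6GALNAC5, -0.40 to 1.18 for C16orf54, -0.62 to 1.12 for POLR2A and -0.16 to 1.23 for FST, the lowest each time without HEB KO library 1. ID4 has no value with the filter at 5 FPKM, where it was not tested. Without counts, the precision of low values such as those of ID4 is unknown.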

Other observations

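Markers of mesendoderm, the lineage that Nodal and BMP signals induce, were low in both groups, and 1 of the 6 in the table, MIXL1, reached 1 FPKM in at least 3 libraries. Their summed level, which was not tested, was 1.05, 0.702 and 0.996 FPKM in the HEB KO libraries, against 6.47, 2.72 and 3.99 FPKM in the WT libraries. MIXL1, a homeobox gene of the primitive streak, held most of that sum, with 0.988, 0.465 and 0.814 FPKM in the HEB KO libraries, against 5.80, 1.75 and 3.13 FPKM in the WT libraries. GSC, an organizer homeobox gene, was at most 0.127 FPKM in the HEB KO libraries, against 0.375 to 0.703 FPKM in the WT libraries. MESP1 overlapped between the groups, and SOX17 was at most 0.0431 FPKM in any library. Whether mesendoderm cells were present, and any part they had in the lower ID2 level, was not tested.

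The 6 blood and endothelium markers summed to 9.95 to 14.5 FPKM in the HEB KO libraries, against 1.28 to 17.7 FPKM in the WT libraries. TEK, a receptor tyrosine kinase gene, gave the most in every library. It read 9.17, 12.6 and 14.3 FPKM in the HEB KO libraries, against 17.1, 1.24 and 1.03 FPKM in the WT libraries, so WT library 1 stood with the HEB KO libraries. PECAM1, CDH5 and PTPRC, which define endothelial and blood cells, were at most 0.312 FPKM in every library.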
